A study of Homo sapiens with 2 samples.

Results

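The genes described here are 9 that encode endogenous Wnt ligands (WNT3, WNT5A, WNT5B, WNT9A, WNT10B), the proteins that lipidate and carry them out of the cell (PORCN, WLS), the secreted Wnt antagonist SFRP1 and the Wnt agonist RSPO3. They were taken by symbol from a fixed list, after matching gene identifiers to GENCODE release 29, out of 58735 genes in each table. Both libraries came from BT549, a breast cancer cell line of mesenchymal character. All cells had received Wnt3a (2 h of treatment). A control shRNA was carried by the scrambled group, and the shSIK2 group had an shRNA that knocks down SIK2, a salt-inducible kinase. There was no culture without Wnt3a, and each group held 1 library, so the spread between replicates is unknown and no test was made. The delivery of the hairpin, the number of hairpins and whether the cells were 1 clone are not given in the labels.

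Wnt proteins are secreted lipoproteins. In the endoplasmic reticulum the acyltransferase PORCN attaches a monounsaturated fatty acid to a conserved serine of the ligand, and WLS, a multipass membrane protein, binds that lipid and carries the ligand to the cell surface. Outside the cell, ligands meet Frizzled receptors with LRP5 or LRP6, or with ROR and RYK in beta-catenin-independent signalling, while SFRP proteins bind ligands through a Frizzled-like domain and R-spondins keep receptors on the surface. WNT3 and WNT10B are best known for beta-catenin signalling and WNT5A and WNT5B for signalling without it.

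The site that ties the ligands to PORCN and WLS is given as coding sequence of 4 ligand members. Each line gives 45 bases from the GENCODE transcript (GRCh38), 5′ to 3′, with the codon of the acylated serine in capitals.
WNT3: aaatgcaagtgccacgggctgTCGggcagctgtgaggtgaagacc
WNT5A: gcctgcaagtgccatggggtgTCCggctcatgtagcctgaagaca
WNT5B: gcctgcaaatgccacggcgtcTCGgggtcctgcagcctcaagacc
WNT9A: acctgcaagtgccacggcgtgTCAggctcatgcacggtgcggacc
The stretches lie within 1 exon each, at chr17:46768731-46768775 (WNT3, minus strand, exon 4), chr3:55470482-55470526 (WNT5A, minus strand, exon 5), chr12:1645818-1645862 (WNT5B, plus strand, exon 5) and chr1:227921932-227921976 (WNT9A, minus strand, exon 4). WNT5A and WNT5B share 35 of the 45 bases, the most of any pair, and WNT3 and WNT5B share 29, the fewest.

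The values are FPKM as deposited, which divide reads by gene length, so levels of different genes can be set side by side. Whole reads could be recovered from them, 18019225 from scrambled and 16347399 from shSIK2 cells. Intervals beside a value or a fold are exact 95% intervals of these reads and cover counting error only. Library depth is not divided out of the deposited values, so folds are ratios of reads. The scrambled library had 1.10 times the reads of the shSIK2 library. At equal read totals folds on the higher side would be larger by that factor and those on the lower side smaller. SIK2 itself had 7.80 FPKM in scrambled cells and 3.56 FPKM in shSIK2 cells, a 2.19-fold lower level (1.99 to 2.42). At equal totals SIK2 was 1.99-fold lower. Of the 12866 genes with 1 FPKM or more in the higher library, 817 had a ratio at least as low. Of the 9 genes fixed for BT549, the 5 that mark the mesenchymal state were all measured, and the list summed to 486 and 681 FPKM. VIM, the filament vimentin, stood at 260.3 and 283 FPKM, CD44 at 145 and 173, ZEB1 at 29.6 and 26.1, FN1 at 13.0 and 9.82, and SPARC, a matrix protein, at 38.1 and 189. Of the 4 genes expected low, EPCAM and PGR had no read in either library, CDH1 had 11 and 2 reads and ESR1 6 and 0. Of the marker lists for other cell types, 0 of 6 leukocyte, 0 of 4 endothelial and 0 of 3 adipocyte genes reached 1 FPKM. Their summed levels in the scrambled and shSIK2 libraries were 0.598 and 0.692, 0.0266 and 0.0056, and 0.046 and 0.0921 FPKM. The luminal list differed, with 2 of 8 genes at 1 FPKM or more (GATA3 and KRT18) and sums of 13.99 and 38.7 FPKM. KRT18 stood at 2.14 and 19.3 FPKM and GATA3 at 11.5 and 18.6, and KRT8 had 13 and 88 reads. FOXA1 went the other way, with 9 and 3 reads, as did CDH1 and ESR1 of the same list. The basal list had 3 of 6 and sums of 17.2 and 26.9 FPKM. Its members went different ways, with ACTA2 at 10.5 and 21.5 FPKM, MYLK at 5.13 and 4.96 and KRT14 at 1.18 and 0.179. The part of these markers in the results below was not tested. In bulk RNA fewer cells of a type and less RNA per cell cannot be told apart.

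As deposited, SFRP1 was higher in the shSIK2 library and WNT10B lower, both by over 2-fold, and the other measured members differed by less. A gene counted as measured if its higher library held 1 FPKM or more, which 7 of the 9 members and 12866 genes in all reached. Log2 ratios divide shSIK2 by scrambled values after adding 0.1 FPKM to each. At this scale 1 of the 7 measured members was at least 2-fold higher, against 11.0% of all measured genes, and 1 was at least 2-fold lower, against 8.28%. The lower member, WNT10B, reached the minimum in the scrambled library only. The median log2 ratio of the 7 members was 0.31, and that of all measured genes was -0.11. With both libraries scaled to equal read totals, which adds 0.14 to the log2 ratio, the shares of all measured genes became 13.4% higher and 6.04% lower, and the median became 0.03. The members' own counts there were 1 higher (SFRP1) and 0 lower, since WNT10B fell short of 2-fold.

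**Figure D1:**
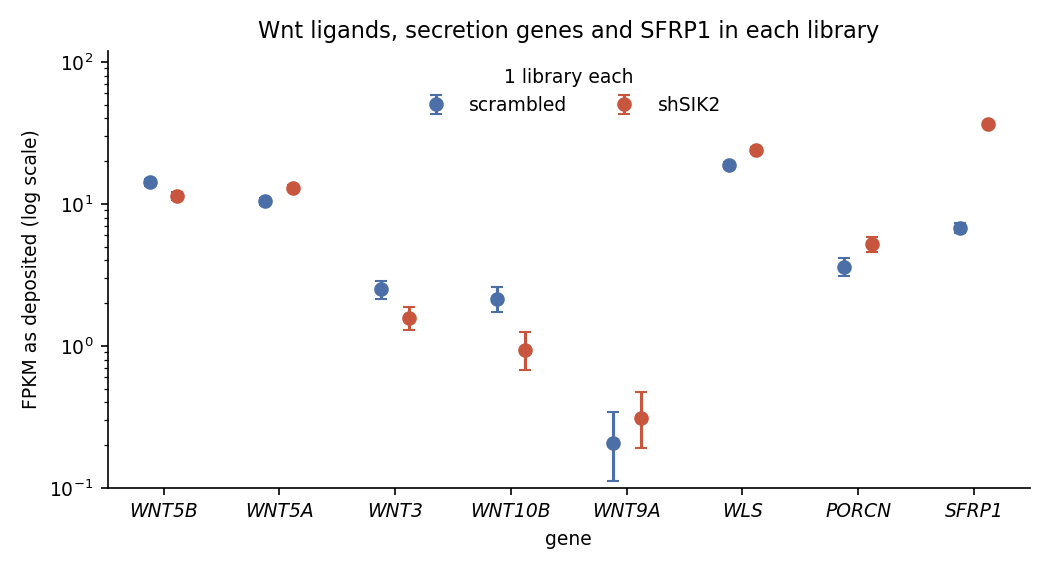
FPKM (log scale) of 8 members in the scrambled (blue) and shSIK2 (red) library, 1 library each; bars are exact 95% counting intervals, and RSPO3, with no read in either library, is not drawn. SFRP1 is the member with the widest gap, at 6.74 and 36.4 FPKM, and WNT10B the ligand with the widest gap among the measured ones, at 2.13 and 0.93.

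WNT5B and WNT5A were the ligands with the highest levels in both libraries. WNT5B (ENSG00000111186, GRCh38 chr12:1529891-1647243) stood at 14.2 FPKM, from 1049 reads, in scrambled cells and at 11.4 FPKM, from 844 reads, in shSIK2 cells. It was 1.24-fold lower there (1.13 to 1.36). WNT5A (ENSG00000114251, chr3:55465715-55490539) stood at 10.4 FPKM (1325 reads) in scrambled cells and at 13.0 FPKM (1651 reads) in shSIK2 cells. It was 1.25-fold higher there (1.16 to 1.34). By FPKM the order of these paralogs was thus opposite in the libraries. By reads WNT5A was above WNT5B in both, so the order rests on the exon lengths used, 7397 bases for WNT5A and 4305 for WNT5B. WNT5A was at 0.735 times the level of WNT5B in the scrambled library (0.677 to 0.798) and at 1.14 times in the shSIK2 library (1.05 to 1.24). This ratio is taken within a library and does not depend on read totals. It carries no correction for GC content, which is 42.3% for WNT5A and 58.6% for WNT5B. With a trend over GC content and exon length removed, the log2 ratios of WNT5A and WNT5B between libraries were 0.62 and -0.46. As deposited they were 0.31 and -0.31, so the size of the change in their order depends on that trend.

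WNT3 and WNT10B, the measured ligands best known for beta-catenin signalling, were both lower in the shSIK2 library. WNT3 (ENSG00000108379, chr17:46762506-46833154) had 2.50 FPKM (186 reads) in scrambled cells and 1.56 FPKM (116 reads) in shSIK2 cells, 1.60-fold less (1.26 to 2.04). WNT10B (ENSG00000169884, chr12:48965340-48971763) stood at 2.13 FPKM from 96 reads and 0.93 FPKM from 42 reads. It was 2.29-fold lower (1.57 to 3.37), the measured ligand with the lowest log2 ratio, at -1.11. Of all 12866 measured genes, 6.31% were at least as low. Among the 3433 genes at a like level, 1 to 3 FPKM in the higher library, 11.5% were at least 2-fold lower. WNT10B reached 1 FPKM in the scrambled library only, so it entered these shares through the library where it was higher. At equal totals its reads differed by 2.07-fold, but its log2 ratio with the pseudocount was -0.98, short of 2-fold. In the scrambled library WNT3 and WNT10B could not be ordered beyond counting error, with WNT3 at 1.18 times the level of WNT10B (0.914 to 1.52). In the shSIK2 library it was at 1.68 times (1.17 to 2.45), an interval that overlaps the one of the scrambled library.

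WNT9A, a ligand encoded next to WNT3A on chromosome 1, was low in both libraries. Scrambled cells had 14 WNT9A reads (ENSG00000143816, chr1:227918656-227947898), or 0.205 FPKM, and shSIK2 cells 21, or 0.308 FPKM. The counting interval of its fold, 1.50, ran from 0.728 to 3.19, so a difference was not detectable at this depth. WNT3A, the gene of the ligand that the cells had received, had no read in either library, and the 3 reads that a count of 0 allows would be 0.0596 FPKM.

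Over all 19 human Wnt ligand genes, 4 were measured. WNT10B was the 1 past 2-fold, on the lower side, where 8.28% of all measured genes lay. The median log2 ratio of the 4 was -0.48. The summed level was nearly equal, 29.9 FPKM in scrambled and 28.3 in shSIK2 cells. WNT5A and WNT5B together made up 82.4% and 86.3% of these sums. The share of WNT5A was 34.9% and 45.96%, that of WNT5B 47.5% and 40.4%, that of WNT3 8.37% and 5.51% and that of WNT10B 7.12% and 3.29%. Of the 15 ligand genes below 1 FPKM, 6 had no read in either library. WNT2B, a ligand of the beta-catenin type, came closest to the minimum, at 0.288 FPKM from 62 reads and 0.742 FPKM from 160 reads, 2.58-fold more in shSIK2 cells (1.91 to 3.52). WNT10B was at 7.40 times the level of WNT2B in the scrambled library (5.32 to 10.4) and at 1.25 times in the shSIK2 library, where the interval of 0.871 to 1.77 did not separate them. These levels are per base of exon, with 12561 bases for WNT2B and 2629 for WNT10B. By reads WNT10B was above WNT2B in scrambled cells (96 and 62) and below it in shSIK2 cells (42 and 160). WNT9A came next after WNT2B in level, and the remaining ligands had few reads: WNT7B had 3 in the scrambled and 10 in the shSIK2 library, WNT10A 0 and 5, and WNT4 5 and 1.

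**Figure D2:**
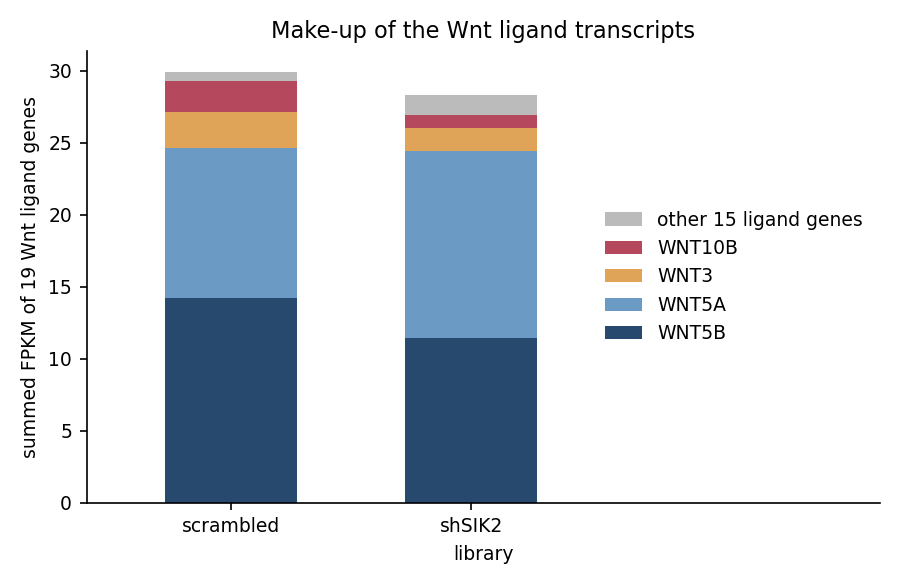
Summed FPKM of the 19 Wnt ligand genes in each library, stacked by gene. The bars are near the same height (29.9 and 28.3 FPKM), the 2 blue segments of WNT5B and WNT5A make up most of both, and the WNT3 and WNT10B segments are thinner in the shSIK2 library.

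WLS and PORCN, the dedicated secretion genes, were both somewhat higher in the shSIK2 library, short of 2-fold. WLS (ENSG00000116729, chr1:68098473-68233120) had 18.8 FPKM (1441 reads) in scrambled cells and 23.9 FPKM (1833 reads) in shSIK2 cells, 1.27-fold more (1.19 to 1.36). Its exons share 111 bases, 2.48% of their length, with the antisense gene GNG12-AS1, which had 16 and 29 reads. No exon of the other members shared bases with an exon of another gene. PORCN (ENSG00000102312, chrX:48508962-48520814) stood at 3.62 FPKM from 187 reads and 5.22 FPKM from 270 reads, 1.44-fold higher (1.19 to 1.75). WLS was at 5.19 times the level of PORCN in the scrambled library (4.46 to 6.08) and at 4.57 times in the shSIK2 library (4.02 to 5.22), intervals that overlap.

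All 12 genes of the list for Wnt lipidation, secretion and recycling were measured. As deposited 1 was past 2-fold, on the lower side, where 8.28% of all measured genes lay. At equal totals 0 were, beside 19.4% of all measured genes in either direction. Their median log2 ratio was -0.0048. SCD, the desaturase that makes the kind of fatty acid PORCN attaches, stood at 512 and 814 FPKM, 1.59-fold higher in the shSIK2 library (1.57 to 1.61). The retromer, a coat that returns WLS from endosomes, had 3 lower subunits. VPS26A had 66.2 FPKM in scrambled and 30.8 in shSIK2 cells, 2.15-fold less (2.04 to 2.27). VPS29 was 1.84-fold lower (1.69 to 2.00) and VPS35 1.76-fold lower (1.68 to 1.85). VPS26B, the alternative to VPS26A, stood at 13.4 and 14.1 FPKM, a ratio of 1.06 (0.983 to 1.13), or 1.16 at equal totals. Across all genes the ratio followed GC content: protein-coding genes in the poorest decile of GC had a median of -0.32 and those in the richest decile one of 0.39. VPS26A, VPS29 and VPS35 have 40.9%, 39.5% and 41.8% GC, and VPS26B has 56.3%. With a trend over GC content and exon length removed, their log2 ratios were -0.84, -0.62, -0.52 and 0.0048, so none of them was 2-fold lower. Among the cargo receptors that move Wnt proteins out of the endoplasmic reticulum, TMED5 was 1.53-fold lower (1.45 to 1.62) and TMED2 1.30-fold lower (1.24 to 1.37), and TMED10 was 1.05-fold higher (1.01 to 1.09).

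SFRP1 was the member that differed most. SFRP1 (ENSG00000104332, chr8:41261958-41309497) had 6.74 FPKM (551 reads) in scrambled cells and 36.4 FPKM (2977 reads) in shSIK2 cells. It was 5.40-fold higher (4.93 to 5.93), with a log2 ratio of 2.42, and 2.28% of all measured genes were at least as high in ratio. Of the 1276 genes at 30 to 100 FPKM in the higher library, 4.23% were at least 2-fold higher. SFRP1 lies in this band through its shSIK2 level alone, so the share does not measure how rare its ratio is. For the 4481 genes at 3 to 10 FPKM in the higher library the share was 9.53%. SFRP1 was at 0.646 times the level of WNT5A in the scrambled library (0.584 to 0.714) and at 2.80 times in the shSIK2 library (2.64 to 2.98).

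Its paralog SFRP2, which also binds Wnt ligands, went the other way, at 22.7 FPKM in scrambled and 15.4 FPKM in shSIK2 cells, 1.47-fold lower (1.32 to 1.65). Their order was therefore opposite in the libraries: SFRP1 was at 0.297 times the level of SFRP2 in the scrambled library (0.266 to 0.331) and at 2.36 times in the shSIK2 library (2.15 to 2.59). The 5 SFRP genes summed to 29.6 and 52.0 FPKM, of which SFRP1 made up 22.8% and 70.0%. FRZB, the third SFRP gene with reads, had 6 and 9, and SFRP4 and SFRP5 had none in either library.

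Of the 18 secreted or surface inhibitors of Wnt signalling, 6 were measured, with a median log2 ratio of 0.02. SFRP1 was the 1 at least 2-fold higher, with 0 lower, beside 11.0% and 8.28% of all measured genes. DKK3, a secreted protein of the Dickkopf family, was 1.65-fold higher in the shSIK2 library (1.51 to 1.80), and DKK1, an LRP6 antagonist, 1.65-fold lower (1.37 to 1.99). IGFBP4, which can bind LRP6 and Frizzled beside insulin-like growth factors, stood at 103.7 and 107.9 FPKM. TRABD2A, a membrane protease that cleaves Wnt ligands, stood at 3.43 and 3.37 FPKM. NOTUM, the enzyme that removes the lipid PORCN adds, was below 1 FPKM, at 0.347 and 0.733.

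RSPO3 (ENSG00000146374, chr6:127118604-127197765) had no read in either library, and 3 reads would be 0.055 FPKM. RSPO1 and RSPO4 had none either. The R-spondin present was RSPO2, with 3.50 FPKM (247 reads) in scrambled and 2.31 FPKM (163 reads) in shSIK2 cells, 1.52-fold less (1.24 to 1.86). Among 9 R-spondins, their receptors and the ligases they inhibit, 3 were measured, with a median log2 ratio of -0.58. Of these 0 were past 2-fold in either direction, beside 19.3% of all measured genes. LGR4, an R-spondin receptor, stood at 18.6 and 20.1 FPKM, and ZNRF3, a ligase that removes Frizzled from the surface, was 1.86-fold lower (1.44 to 2.42). ZNRF3 reached 1 FPKM in the scrambled library only, at 1.48 and 0.794 FPKM.

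Heparan sulfate carriers are cell-surface proteoglycans that hold Wnt ligands and SFRP1 near the membrane. The list of 12 genes also holds the sulfatases SULF1 and SULF2, which are not carriers. Of the 12 genes 5 were measured, and 3 of these were past 2-fold, all on the higher side, where 11.0% of all measured genes lay. The median log2 ratio of the 5 was 1.32. SDC3 was 3.63-fold higher in the shSIK2 library (3.07 to 4.32), SDC1 2.77-fold (2.49 to 3.08) and GPC1 2.57-fold (2.18 to 3.05). SDC4, at 42.9 and 84.2 FPKM, was 1.96-fold higher (1.86 to 2.07) and past 2-fold at equal totals. GPC6 stood at 37.6 and 28.3 FPKM, 1.33-fold lower (1.27 to 1.39). Of the 7 genes below the minimum, GPC5 alone had more reads in shSIK2 cells (0 and 4). SDC2 had 15 and 1, GPC4 9 and 1, SULF1 7 and 1, GPC2 58 and 51 and SULF2 81 and 78 (scrambled first), and GPC3 had none in either. With the GC and length trend removed 3 were again past 2-fold, all higher, with SDC4 (log2 ratio 1.11) in place of GPC1 (0.85). The list median was then 1.11.

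The Wnt receptors held 14 measured genes of 16, with 2 at least 2-fold higher (ROR2 and FZD9), 2 lower (FZD4 and ROR1) and a median log2 ratio of 0.16. These counts stand beside 11.0% and 8.28% of all measured genes. At equal totals 3 were higher, with LRP5 added at 1.07, and with the GC and length trend removed 1 was, FZD9 having a log2 ratio of 0.54. ROR2 and FZD9 reached 1 FPKM in the shSIK2 library only, and ROR1 in the scrambled library only. ROR2, a receptor for WNT5A, had 0.0501 FPKM (5 reads) in scrambled and 1.26 FPKM (126 reads) in shSIK2 cells, and ROR1 at 1.34 and 0.234 FPKM. The log2 ratios of FZD4 and ROR1 were -2.49 and -2.11.

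**Figure D3:**
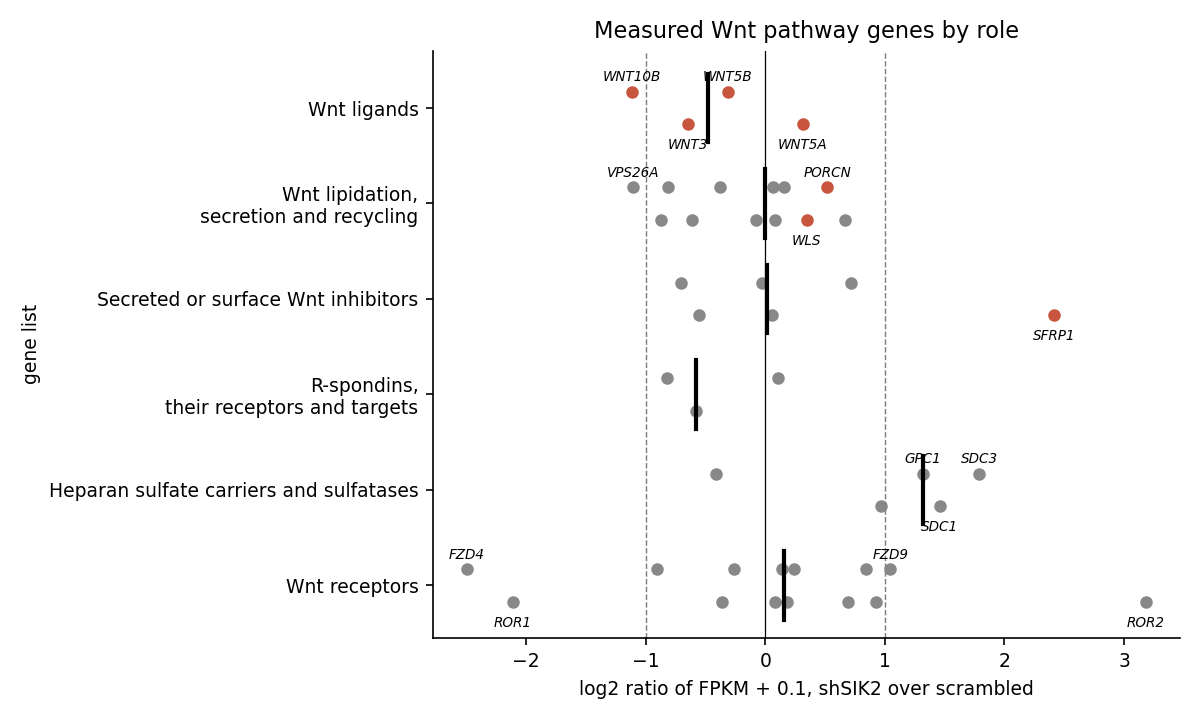
Log2 ratio (shSIK2 over scrambled, 0.1 FPKM added) of each measured gene in 6 Wnt gene lists; members are red, other genes grey, black bars are list medians and dashed lines mark 2-fold. SFRP1 stands alone on the right of the inhibitors at 2.42, and the heparan sulfate list has the highest median, 1.32.

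The members were set beside their chromosomal neighbours, the 5 nearest measured protein-coding genes on each side. The 10 neighbours of SFRP1 had a median log2 ratio of 0.49. The 5 on its lower-coordinate side (ADAM9, TM2D2, PLEKHA2, TACC1 and FGFR1) were all higher in the shSIK2 library, with log2 ratios of 0.46 to 0.80, the nearest of them 2157 kb away. On the other side ANK1 had a log2 ratio of 2.13, from 46 reads to 263, and GOLGA7, GINS4 and KAT6A were below 0. Relative to the neighbour median the log2 ratio of SFRP1 was 1.93. The 10 neighbours of WNT10B had a median of 0.02, and relative to it WNT10B stood at -1.13. For WLS the neighbour median was -0.42, and relative to it WLS stood at 0.77. WNT3 and WNT5B lay among genes that were themselves slightly lower, with medians of -0.34 and -0.27. Relative to these the log2 ratio of WNT3 was -0.31 and that of WNT5B -0.039. All these neighbour medians were taken with the GC and length trend left in. With the trend removed, the neighbour median of SFRP1 was 0.80, with SFRP1 itself at 2.57.

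**Figure D4:**
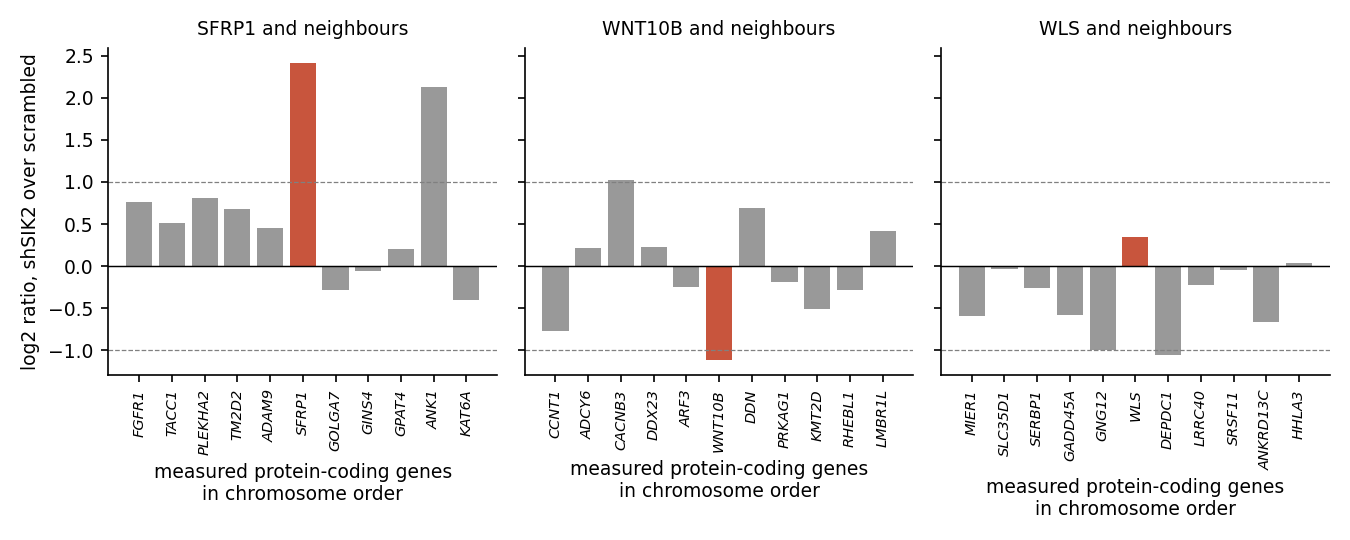
Log2 ratios (shSIK2 over scrambled) of SFRP1, WNT10B and WLS (red) and of the 5 nearest measured protein-coding genes on each side (grey), in chromosome order. The genes left of SFRP1 are all above 0, at 0.46 to 0.80, the neighbours of WNT10B lie on both sides of 0, and those of WLS lie at or below 0.04.

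The direction of the 8 members with reads was the same under 4 scalings, and sizes moved. For WNT5A the log2 ratio was 0.31 as deposited, 0.45 at equal totals, 0.62 with the GC and length trend removed and 0.43 relative to its neighbours. For WNT5B the same values were -0.31, -0.17, -0.46 and -0.039, so as deposited its log2 ratio was close to the median of the genes around it. With the GC and length trend removed it was not, at -0.46 beside a neighbour median of -0.09.

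**Figure D5:**
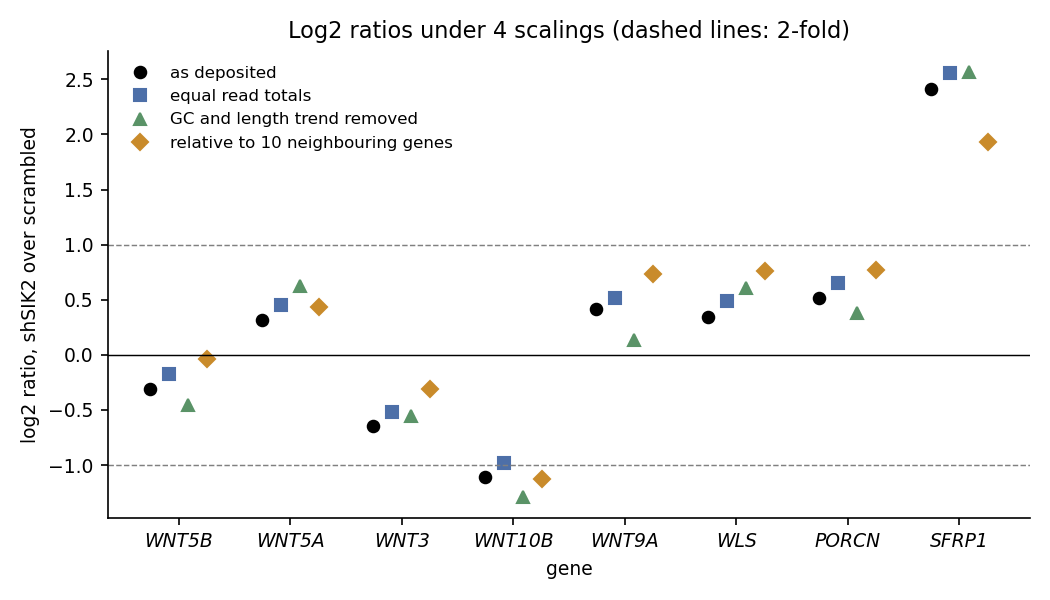
Log2 ratio of 8 members as deposited, at equal read totals, with the GC and length trend removed and relative to the 10 neighbouring genes; dashed lines mark 2-fold. Each member stays on its side of 0 in all 4, SFRP1 between 1.93 and 2.57, and WNT10B crosses the 2-fold line at equal totals (-0.98).

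The protein-coding genes with levels most like those of SFRP1, by Euclidean distance of log2(FPKM + 0.1) over the 2 libraries, were OLFM1 (6.78 and 35.4 FPKM, distance 0.0412), SDF2L1 (6.04 and 30.5, distance 0.298) and STEAP1 (6.99 and 26.9, distance 0.44). Those most like WNT10B were PCDH8 (2.17 and 0.928 FPKM, distance 0.0289), MYH15 (2.10 and 0.977, distance 0.066) and ZNF772 (2.00 and 0.937, distance 0.0871). With 2 libraries such likeness is only that of a pair of values.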

How the data were processed

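Total RNA was sequenced from 1 scrambled and 1 shSIK2 culture of BT549, grouped by sample title. The submitters' processing notes name HISAT2 2.0.5 and the build hg18. The sources used here do not give the read counter, annotation, strandedness or FPKM formula. The deposited values are FPKM, per the file headers, with no counts beside them.

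All 58735 gene identifiers matched GENCODE release 29 (GRCh38), the source of symbols, exon lengths and coordinates. The build of the alignment remains unsettled. FPKM times exon length gave whole multiples of 58.3 in both tables for 100% of values above 0 (tolerance 0.001), taken as reads. Depth is therefore not divided out per library. A gene was measured at 1 FPKM in the higher library. Ratios used a pseudocount of 0.1, which understates those of low genes, and the size rule was 2-fold. Fold intervals are Clopper-Pearson, conditional on the sum; level intervals are exact Poisson. Reads here carry no molecular identifiers, so both cover counting error only. A read count of 0 allows up to 3 reads. The trend was removed by medians in 20 bins of GC content (longest transcript) and 20 of exon length, repeated once. Alternatives were equal totals, pseudocounts of 1 and 0.01, minimums of 0.5 and 5 FPKM or none, trend removal and neighbours.

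Members and lists were chosen with earlier results of these data known. Genes named were SIK2, the members, their neighbours, the 3 of most similar level to SFRP1 and WNT10B, and in each list the 3 largest absolute ratios; further list genes and markers were named after their values were seen. Read recovery, intervals, the 2-fold rule and trend removal were tested on simulated data. Computation used scipy 1.17.1, numpy 2.4.6 and pandas 2.3.3 under Python 3.11.15, and plots used matplotlib 3.10.9.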

Additional observations from a re-analysis of the deposited data

How the results depend on the processing

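SFRP1 stayed the 1 member at least 2-fold higher under every alternative run. The 1 lower member, WNT10B, became 0 at equal totals, with a pseudocount of 1 FPKM and with a minimum of 5 FPKM, which it does not reach. The count of Wnt ligands past 2-fold, 1 as reported, was 0 under the same 3 settings and 2 with no minimum or a minimum of 0.5 FPKM, which adds WNT2B. The ligands' median log2 ratio of -0.48 became 0.31 with no minimum and 0.0017 at a minimum of 5 FPKM, where WNT5A and WNT5B alone remain. No member's log2 ratio changed sign: SFRP1 ranged from 1.93 to 2.57, WNT10B from -1.29 to -0.70, WNT5B from -0.46 to -0.039, WNT3 from -0.68 to -0.31, WNT5A from 0.29 to 0.62, WLS from 0.33 to 0.77 and PORCN from 0.38 to 0.77. SIK2, the hairpin's target, ranged from -1.13 to -0.94. No replicate could be left out. No paired analysis was possible because each group holds 1 library. WNT9A, which ranged from 0.12 to 0.73, rests on 14 and 21 reads and is limited by depth.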
